A study of Glycine max with 2 samples.

Results

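Among the 3527 differentially methylated regions (DMRs) found between NJCMS5A, a soybean line with cytoplasmic male sterility, and NJCMS5B, the line that maintains it, 264 lay on scaffolds numbered over 40 and had a depth over 20 in at least 1 of the libraries. These high-depth DMRs were 7.49% of all DMRs and 21.1% of the 1251 DMRs on such scaffolds, and they were spread over 183 scaffolds. Depth is the mean number of cytosine calls per cytosine of the DMR, and the methylation level is the share of those calls that were methylated, over all cytosine contexts together. The members were therefore chosen by a measured value, the depth in either library, so the depths below are a description. The DMRs themselves had been called on the level difference between the same 2 libraries, so the levels and differences are a description as well, and no test across DMRs is given as support.

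The data are whole-genome bisulfite sequencing of genomic DNA from flower buds at the full-bloom stage. NJCMS5A is the cytoplasmic male sterile line, bred by backcrossing with the recurrent parent Wandou28 after a first cross with NJCMS1A as the cytoplasm donor. NJCMS5B is the male-fertile maintainer line, which is Wandou28 itself. Each line gave 1 library, made from pooled buds of different sizes of plants grown in summer at 1 field station, so a difference between lines and a difference between libraries cannot be told apart and there is no replicate check. Coordinates below are those of the deposited Williams 82 assembly, and gene names follow its annotation Wm82.a2.v1.

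Bisulfite treatment converts unmethylated cytosines while methylated cytosines are kept, so the share of unconverted calls at a cytosine reads out its methylation. In plants, cytosines are methylated in the CG, CHG and CHH contexts, where H is any base but G, and transposable elements and other repeats usually carry dense methylation in all of them. Unplaced scaffolds are pieces of the assembly that could not be put on a chromosome. They are often rich in repeats, and near-identical copies of a sequence can be merged there into a single piece. The tables used here hold no repeat annotation and no copy number, so whether the high-depth DMRs are repeats was not tested, and they are called by their depth and place throughout.

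The high-depth DMRs were deep in 1 library and of ordinary depth in the other. Their median depth was 20.4 in NJCMS5A (range 5.19 to 530) and 20.97 in NJCMS5B (range 5 to 456), against 10.8 in NJCMS5A and 10.3 in NJCMS5B for the other 987 small-scaffold DMRs and 11.3 and 10.7 in the same order of lines for all DMRs. The depth passed 20 in NJCMS5A only for 124 DMRs, in NJCMS5B only for 126 DMRs and in both libraries for 14 DMRs. The depth of the deeper library had a median of 32.3 (quartiles 24.7 and 52.6), and that of the shallower library had a median of 11.01 (quartiles 9.23 and 12.9). In 228 of the 264 DMRs the shallower library stayed under a depth of 15, close to the DMRs of the chromosomes, whose median depth was 10.2 in NJCMS5A and 9.97 in NJCMS5B.

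The excess depth was split evenly between the lines, with 131 DMRs deeper in NJCMS5A and 133 deeper in NJCMS5B. The log2 ratio of the depth in NJCMS5A to that in NJCMS5B had a median of -0.05 and quartiles of -1.61 and 1.60. The fold between the depths, taken as the greater over the lesser, had a median of 3.05 and reached 45.0, against a median of 1.25 and a highest value of 3.38 in the other small-scaffold DMRs. A rule that asks for a high depth in either library favours DMRs whose depths differ, which bears on this contrast. The imbalance was not particular to small scaffolds. DMRs over depth 20 on scaffolds numbered 21 to 40 (75 DMRs) had a median fold of 2.82 and a highest value of 47.5. Those on the chromosomes (9 DMRs) had a median of 2.73 and a highest value of 7.42.

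**Figure D1:**
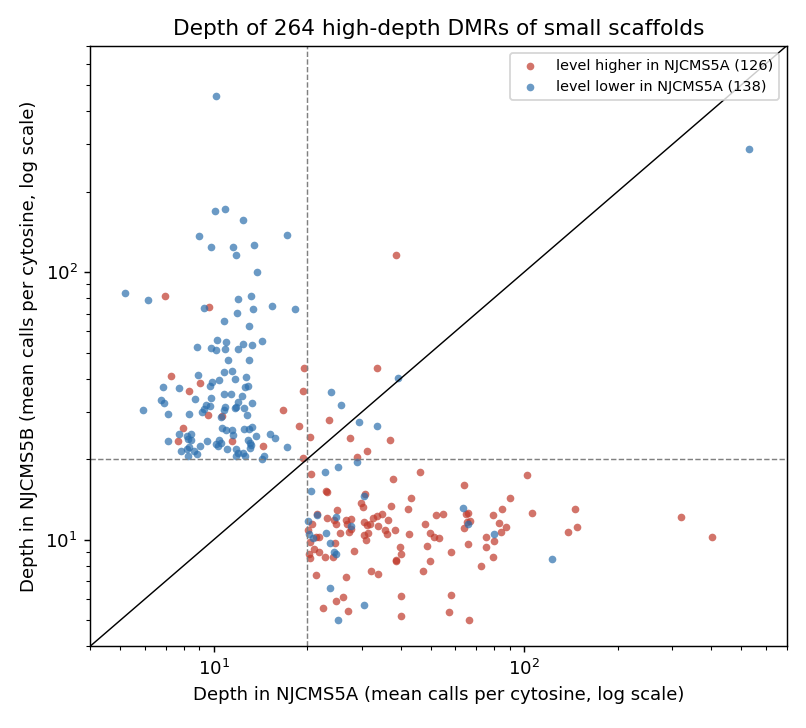
Depth of the 264 high-depth DMRs in NJCMS5A (x axis) and NJCMS5B (y axis), in mean calls per cytosine on log scales, with 1 point per DMR coloured by the direction of the level difference, dashed lines at the depth limit of 20 and a solid line of equal depth. Only 14 DMRs lie above the limit in both libraries, and most points to the lower right are higher in level in NJCMS5A while most to the upper left are lower.

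The limit of 20 did not fall in a gap of the depths. Just inside it were the DMR of scaffold_823 from position 565 with a greater depth of 20.1, that of scaffold_1743 from 4259 with 20.2 and that of scaffold_1604 from 2623 with 20.2. Just outside it were the DMR of scaffold_59 from 141946 with 19.97, that of scaffold_884 from 2203 with 19.95 and that of scaffold_623 from 3473 with 19.93. Well above it, 73 DMRs passed a depth of 50 in 1 or both libraries and 20 passed 100. The 264 DMRs held 16.8% of the cytosine calls of all DMRs in NJCMS5A and 20.2% in NJCMS5B.

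The level was usually higher in whichever library was the deeper. It was higher in the deeper library in 219 of 264 high-depth DMRs, 83.0% (95% Wilson interval 78.0 to 87.0), beside 46.2% of all 3527 DMRs and 48.9% (45.8 to 52.1) of the other small-scaffold DMRs. Of the 131 DMRs deeper in NJCMS5A, 106 (80.9%) were higher in level in NJCMS5A and 25 were lower. Of the 133 DMRs deeper in NJCMS5B, 20 were higher in level in NJCMS5A and 113 (85.0%) were lower. The split thus ran in opposite directions in the 2 sets. In the other small-scaffold DMRs it was 44.8% higher in NJCMS5A among those deeper in NJCMS5A and 46.2% among those deeper in NJCMS5B.

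In level, the deeper library had a median of 39.2% (quartiles 27.8 and 43.1) and the shallower library a median of 15.1% (quartiles 6.46 and 20.1). In the other small-scaffold DMRs these medians were 17.8% in the deeper library and 18.7% in the shallower one. The deeper library had a level between 30% and 50% in 180 high-depth DMRs (68.2%), whereas the shallower library was in that range in 32 (12.1%). Among the other small-scaffold DMRs, 28.5% had a level in that range in the deeper library. The DMRs deeper in NJCMS5A had median levels of 39.7% in NJCMS5A and 14.9% in NJCMS5B, and those deeper in NJCMS5B had median levels of 15.4% in NJCMS5A and 38.9% in NJCMS5B. The 2 sets were thus close to mirror images, and the highest level of any high-depth DMR was 60.7% in NJCMS5A and 60.1% in NJCMS5B.

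**Figure D2:**
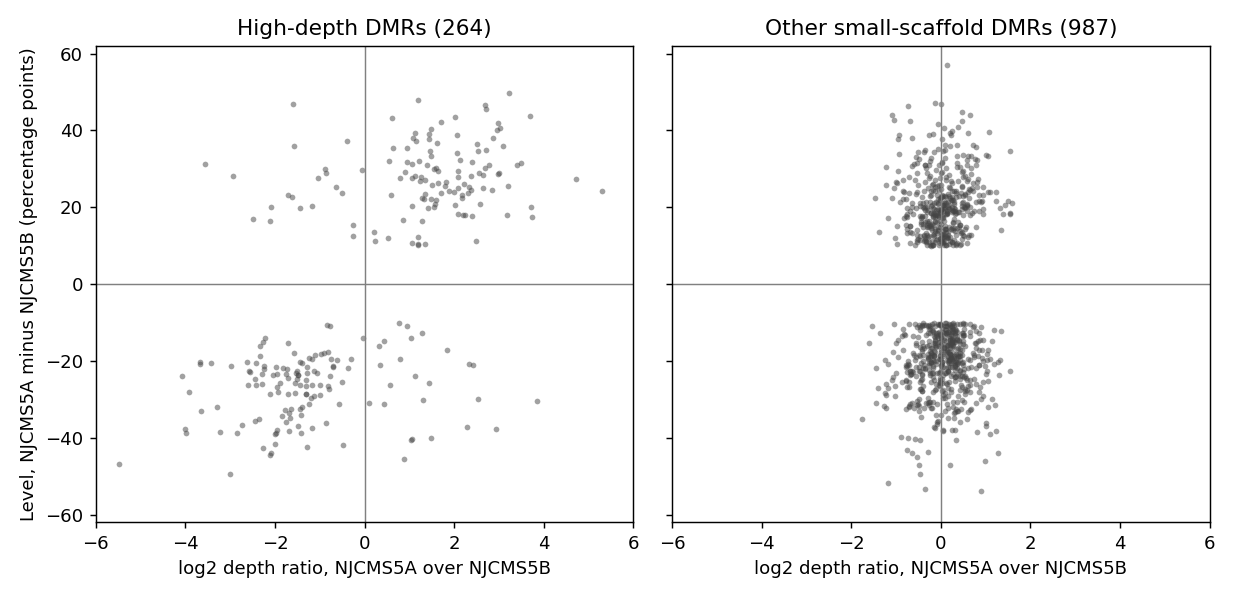
Level difference, NJCMS5A minus NJCMS5B in percentage points (y axis), against the log2 ratio of the depths, NJCMS5A over NJCMS5B (x axis), with 1 point per DMR, for the 264 high-depth DMRs on the left and the other 987 small-scaffold DMRs on the right. The high-depth DMRs fill mainly the upper right and lower left of the plot, with 106 and 113 DMRs, while the other DMRs lie around a depth ratio of 1 in both directions, and the empty band around 0 holds no called DMR.

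Among the high-depth DMRs the share was greater where the depths were more unequal. The level was higher in the deeper library in 4 of 8 high-depth DMRs whose depths differed by less than 1.25-fold and in 6 of 13 between 1.25-fold and 1.5-fold. The share was 76.7% of 30 DMRs between 1.5-fold and 2-fold, 85.8% of 113 between 2-fold and 4-fold, and 89.0% of 100 at 4-fold or more. The bins under 1.5-fold hold few DMRs. Among the other small-scaffold DMRs the share was 53.5% of 71 between 2-fold and 4-fold. Their depths lay between 5 and the limit of 20, so a fold over 4 could not occur there. Over all DMRs of the table outside the high-depth set it was 44.3% of 1958 under 1.25-fold, 37.5% of 730 between 1.25-fold and 1.5-fold and 42.2% of 386 between 1.5-fold and 2-fold. There it was greater between 2-fold and 4-fold, at 56.8% of 169, and 45.0% of only 20 at 4-fold or more. None of these bins reached the shares of the high-depth DMRs above 1.5-fold. A depth over 20 in both libraries was not accompanied by this pattern, with 7 of 14 DMRs higher in the deeper library.

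Spearman's rho between the log2 depth ratio and the level difference was 0.63 over the 264 high-depth DMRs, against 0.02 over the other small-scaffold DMRs and 0.05 over all DMRs. These points share the same 2 libraries, and DMRs of 1 scaffold are not independent. The rule used depth, so the log2 depth ratio was widely spread in the high-depth DMRs (quartiles -1.61 and 1.60). In the other small-scaffold DMRs it was narrow (quartiles -0.28 and 0.35), so the rhos are not directly comparable. Within the DMRs deeper in NJCMS5A it was 0.28 and within those deeper in NJCMS5B 0.27, both weaker than over the 264 together. Outside the small scaffolds, DMRs over depth 20 were fewer. On the scaffolds numbered 21 to 40 the level was higher in the deeper library in 53 of 75 such DMRs, and on the chromosomes in 1 of 9. The median level of these 75 DMRs was 37.1% in the deeper library and 16.5% in the shallower one, close to the levels of the high-depth DMRs of small scaffolds.

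Over a depth of 30 the level of the deeper library gathered around 40%, while below it the levels were more spread. Between a depth of 20 and 25 the deeper library had a median level of 36.3% and the shallower library 16.6% (75 DMRs). Between 25 and 30 they were 34.4% and 15.01% (34 DMRs). Between 30 and 40 these medians were 40.7% and 14.6% (60 DMRs), and between 40 and 60 they were 40.6% and 15.4% (39 DMRs). Between 60 and 100 they were 40.6% and 9.49% (36 DMRs), and over 100 they were 41.2% and 13.5% (20 DMRs). The quartiles of the deeper library were 20.98% and 41.1% between 20 and 25, and 17.3% and 41.7% between 25 and 30. They were 33.7% and 43.5% between 30 and 40, 34.4% and 45.8% between 40 and 60, and 32.3% and 43.2% between 60 and 100. The narrowest were 39.0% and 43.7% over 100, where each value also rests on more calls. The share of DMRs with the higher level in the deeper library was 77.3% between 20 and 25 and 70.6% between 25 and 30. It was 88.3% between 30 and 40, 92.3% between 40 and 60, 86.1% between 60 and 100 and 85.0% over 100. The share was thus greater in every bin over 30 than in those below, but it did not climb steadily with depth.

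**Figure D3:**
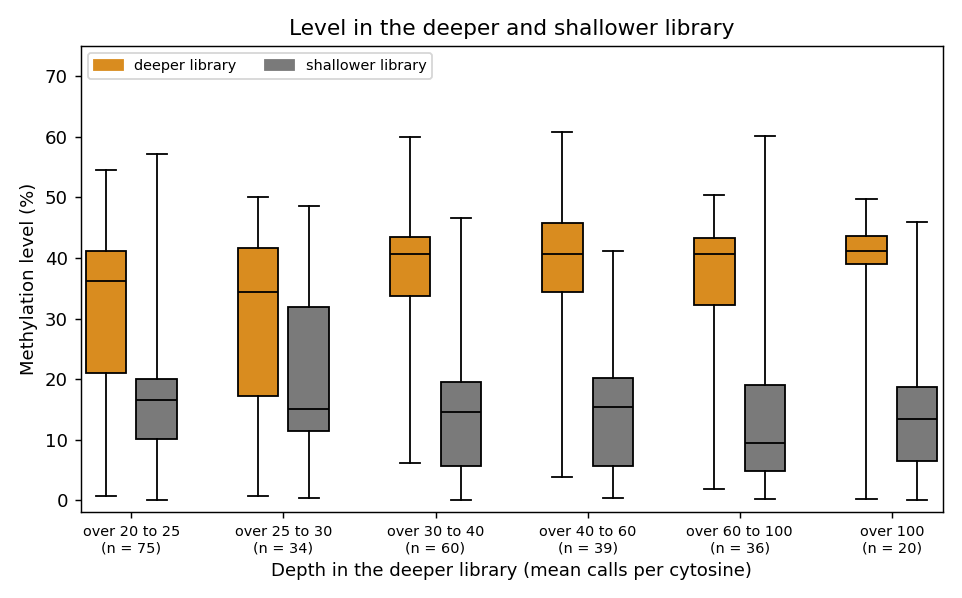
Methylation level in percent (y axis) of the deeper library (orange) and the shallower library (grey) for the 264 high-depth DMRs, grouped by the depth of the deeper library (x axis, mean calls per cytosine, with the number of DMRs); boxes give the quartiles and median and whiskers the lowest and highest value. The medians of the deeper library lie between 34.4% and 41.2% in every bin, those of the shallower library between 9.49% and 16.6%, and the whiskers overlap throughout.

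In the remaining 45 high-depth DMRs the deeper library had the lower level. There its median level was 8.95%, and that of the shallower library was 37.8%. The most unequal of them was the DMR of scaffold_1659 from position 2625, with a depth of 123 in NJCMS5A and 8.51 in NJCMS5B and a level of 15.4% in NJCMS5A and 45.9% in NJCMS5B. A level near 40% was thus found in the shallower library of these DMRs.

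The direction between the lines was nearly even. The level was lower in NJCMS5A (hypo-methylated) in 138 high-depth DMRs, 52.3% (95% Wilson interval 46.3 to 58.2), beside 55.8% of all DMRs and 54.5% of the other small-scaffold DMRs. It was higher in NJCMS5A (hyper-methylated) in 126, 47.7%, beside 44.2% of all DMRs. The hypo-methylated DMRs had median levels of 12.4% in NJCMS5A and 39.97% in NJCMS5B, and the hyper-methylated DMRs had median levels of 41.1% in NJCMS5A and 10.9% in NJCMS5B. The level over all high-depth DMRs had a median of 20.8% in NJCMS5A and 22.8% in NJCMS5B.

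The differences in level were larger than in all DMRs or in the other small-scaffold DMRs, but deep DMRs of larger scaffolds came close. A difference of at least 20 percentage points was seen in 215 high-depth DMRs, 81.4% (95% Wilson interval 76.3 to 85.7), beside 33.9% of all DMRs and 49.3% of the other small-scaffold DMRs. In 112 of them the level was at least 20 points lower in NJCMS5A (42.4%, beside 18.9% of all DMRs), and in 103 at least 20 points higher (39.0%, beside 15% of all DMRs). The size of the difference had a median of 26.3 points (quartiles 21.005 and 33.1), against 19.9 points in the other small-scaffold DMRs and 16.7 points in all DMRs. Of the 75 DMRs over depth 20 on scaffolds 21 to 40, 51 (68.0%, interval 56.8 to 77.5) had a difference of at least 20 points, and the median size was 22.6 points. A level under 1% in at least 1 library was found in 40 high-depth DMRs (15.2%, beside 10.2% of all DMRs), so near-absent methylation in a library was not the usual form of the difference.

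As in every DMR of the table, the calls of the 2 libraries differed by Fisher's exact test (p adjusted by Benjamini-Hochberg across all 3527) in 264 of 264 high-depth DMRs, beside 100% of all DMRs, with a largest adjusted p of 0.000735. This repeats the criterion by which the DMRs were called and compares libraries, not lines. When each cytosine was counted once, which removes the weight of depth, 231 high-depth DMRs (87.5%) passed the same exact test, beside 82.8% of all DMRs and 81.1% of the other small-scaffold DMRs.

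The deepest DMRs show the pattern and its main exception. In NJCMS5A the greatest depth was that of scaffold_2080 from 2369 to 3151, which was deep in both libraries, at 530 in NJCMS5A and 289 in NJCMS5B. Its level was 0.254% (95% Wilson interval 0.223 to 0.289) in NJCMS5A and 45.8% (45.4 to 46.3) in NJCMS5B, so here the deeper library was almost unmethylated. The next were a pair of DMRs of scaffold_529. The DMR from 11687 to 13474 had a depth of 402 in NJCMS5A and 10.3 in NJCMS5B, with a level of 43.1% in NJCMS5A and 18.8% in NJCMS5B. The DMR from 8783 to 10692 had a depth of 319 in NJCMS5A and 12.1 in NJCMS5B, with a level of 46.0% in NJCMS5A and 18.6% in NJCMS5B. Both had the higher level in the deeper library, as had scaffold_66 from 207125 (depth 148 in NJCMS5A and 11.2 in NJCMS5B, level 39.4% in NJCMS5A and 19.3% in NJCMS5B) and scaffold_884 from 6485 (depth 146 in NJCMS5A and 13.1 in NJCMS5B, level 41.2% in NJCMS5A and 9.60% in NJCMS5B).

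In NJCMS5B the deepest DMR was that of scaffold_2185 from 87 to 1206, with a depth of 10.1 in NJCMS5A and 456 in NJCMS5B, the widest imbalance of the high-depth DMRs at 45.0-fold. Its level was 0.107% (95% Wilson interval 0.0363 to 0.314) in NJCMS5A and 46.9% (46.7 to 47.2) in NJCMS5B. The DMR of scaffold_2058 from 4697 had a depth of 10.9 in NJCMS5A and 172 in NJCMS5B and a level of 2.61% in NJCMS5A and 41.4% in NJCMS5B. These are DMRs with almost no methylated calls in NJCMS5A. Others kept an intermediate level in the shallower library, such as scaffold_822 from 2395, with a depth of 10.1 in NJCMS5A and 169 in NJCMS5B and a level of 17.2% in NJCMS5A and 41.2% in NJCMS5B. The DMR of scaffold_76 from 80808, with 1588 cytosines the richest in cytosines of all high-depth DMRs, had a depth of 12.5 in NJCMS5A and 157 in NJCMS5B and a level of 10.3% in NJCMS5A and 43.3% in NJCMS5B.

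Among the 220 high-depth DMRs with at least 50 cytosines, the largest decreases in NJCMS5A were those of scaffold_2184 from 387 (0.390% in NJCMS5A and 49.8% in NJCMS5B), scaffold_2185 and scaffold_2080 as above, scaffold_442 from 74 (0.791% in NJCMS5A and 45.2% in NJCMS5B) and scaffold_2245 from 428 (4.83% in NJCMS5A and 48.9% in NJCMS5B). All of them were deeper in NJCMS5B except scaffold_2080. The largest increases were those of scaffold_589 from 58 (53.5% in NJCMS5A and 5.74% in NJCMS5B) and of scaffold_1952 from 2267 (47.5% in NJCMS5A and 0.845% in NJCMS5B). They were followed by scaffold_1952 from 529 (49.3% in NJCMS5A and 5.54% in NJCMS5B), scaffold_632 from 4867 (45.3% in NJCMS5A and 2.01% in NJCMS5B) and scaffold_1640 from 2320 (42.7% in NJCMS5A and 0.514% in NJCMS5B). All 5 of these were deeper in NJCMS5A, by 1.53-fold to 12.9-fold.

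The density of cytosines, which the rule did not use, was close to that of the whole table. It counts the sites listed for a DMR and is not its base composition. It had a median of 18.3 cytosines per 100 bp (quartiles 12.4 and 23.9), against 15.8 in the other small-scaffold DMRs and 18.8 in all DMRs. The length had a median of 1085 bp (range 31 to 8012), against 1091 bp in the other small-scaffold DMRs and 1135 bp in all DMRs, and the number of cytosines had a median of 175.5, against 160 and 215 in the same order. Across the 264 DMRs, Spearman's rho between the density and the size of the level difference was 0.19, which is weak.

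At the upper end of the density, 2 high-depth DMRs stood apart and were the only DMRs of the table with over 60 cytosines per 100 bp. The DMR of scaffold_1127 from 7210 was listed with 686 cytosines at 76.4 per 100 bp, and its level was 36.5% in NJCMS5A and 0.926% in NJCMS5B. The DMR of scaffold_1743 from 4259 was listed with 206 cytosines in 147 bp, or 140 per 100 bp, and its level was 29.9% in NJCMS5A and 0.803% in NJCMS5B. Each base pair holds at most 1 cytosine over both strands, so either the listed number or the listed bounds of that DMR are not to be taken literally. The next in density was scaffold_2177 from 3471 with 44.8 per 100 bp. At the lower end, the sparsest DMRs with at least 50 cytosines were scaffold_522 from 7060, scaffold_123 from 39966 and scaffold_852 from 2384. They had 4.56, 4.84 and 4.94 cytosines per 100 bp, and each was annotated to a gene. Some DMRs with fewer cytosines were sparser, down to 2.71 per 100 bp in scaffold_85 from 31511, which had no gene.

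Of the 183 scaffolds, 134 held 1 high-depth DMR and 49 held more, and on 106 every DMR of the scaffold was a high-depth one. Among the 49 scaffolds with more than 1, 16 held high-depth DMRs of both directions. Neighbouring high-depth DMRs at most 2000 bp apart had the same direction in 32 of 36 pairs (88.9%) and the same deeper library in 29 (80.6%). Where only 1 DMR of the pair was a high-depth one, the direction was shared in 55 of 64 pairs (85.9%), and where neither was, in 183 of 322 pairs (56.8%). Windows that overlap or touch can share reads, and their part in this was not tested.

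The scaffold with the most was scaffold_56, where 10 of 12 DMRs were high-depth ones. The level was higher in the deeper library in all 10, of which 6 were deeper in NJCMS5A and 4 in NJCMS5B. Direction and depth changed sides together along the scaffold. For example, the DMR from 59407 to 61221 had a level of 45.9% at a depth of 30.6 in NJCMS5A and 18.3% at a depth of 14.8 in NJCMS5B. The DMR that follows it, from 62807 to 64802, had a level of 14.2% at a depth of 12.0 in NJCMS5A and 40.6% at a depth of 32.7 in NJCMS5B. In all 10 the level was between 38.4% and 48.6% in the deeper library and between 10.3% and 22.2% in the shallower one.

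On scaffold_66 all 7 DMRs were high-depth ones, 6 of them with the higher level in NJCMS5A and 5 with the higher level in the deeper library. The exceptions lay next to each other. The DMR from 195507 had a level of 38.4% at a depth of 16.8 in NJCMS5A and 9.43% at a depth of 30.4 in NJCMS5B. The DMR from 202326 had a level of 41.1% at a depth of 33.5 in NJCMS5A and 3.92% at a depth of 43.8 in NJCMS5B. On scaffold_529, 4 of 5 DMRs were high-depth ones and all 4 had the higher level in the deeper library.

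**Figure D4:**
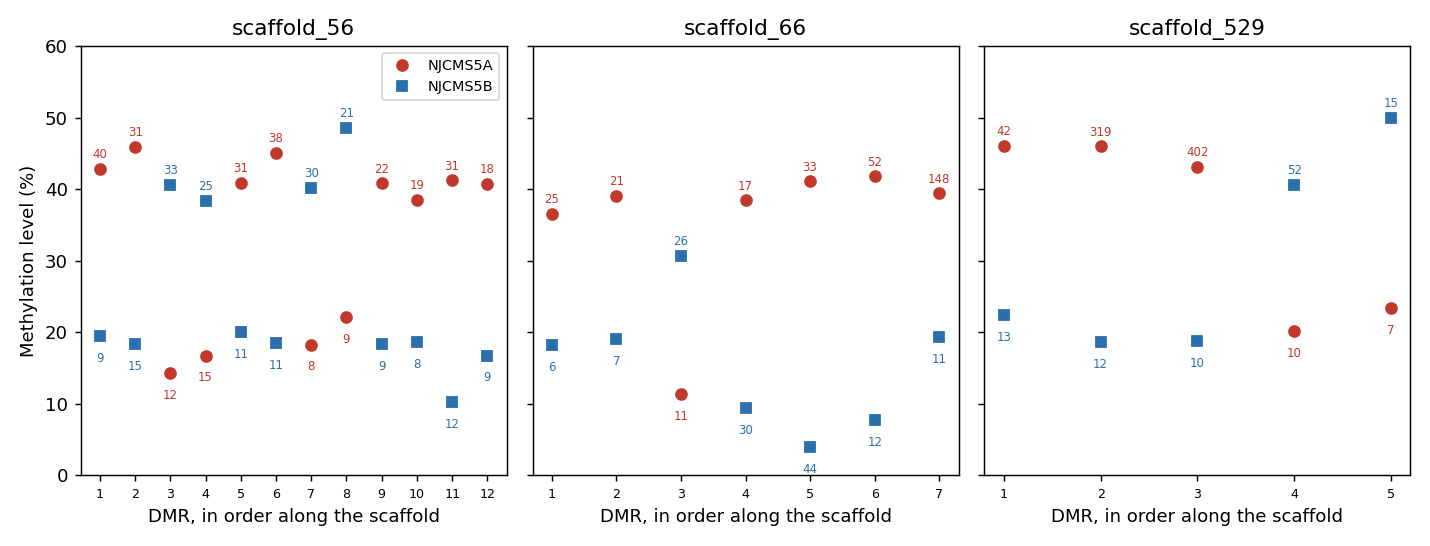
Methylation level in percent (y axis) of every DMR of scaffold_56 (12 DMRs), scaffold_66 (7) and scaffold_529 (5), in order along the scaffold (x axis), in NJCMS5A (red circles) and NJCMS5B (blue squares), with the depth as a small number at each point. The higher level goes with the greater depth in all 12 DMRs of scaffold_56, whichever line it falls in, and in 5 of the 7 DMRs of scaffold_66, where the higher level lies between 30.7% and 41.8%.

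Elsewhere the pattern was less regular. On scaffold_48, 7 of 27 DMRs were high-depth ones, 4 lower and 3 higher in NJCMS5A, with the higher level in the deeper library in 5. On scaffold_43, 4 of 25 DMRs were high-depth ones and all 4 were higher in NJCMS5A. On scaffold_165 all 4 DMRs were high-depth ones, but no level there passed 13.1% in NJCMS5A or 11.2% in NJCMS5B, under every level of the deeper library on scaffold_56. On scaffold_123, 5 of 7 DMRs were high-depth ones and the higher level lay in the deeper library in only 2.

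Few of the high-depth DMRs touched a gene. A gene was annotated to 24 of them, 9.09%, beside 17% of all DMRs and 10.7% of the other small-scaffold DMRs, and 240 had none. The 24 DMRs gave 23 genes, of which 20 carry names of unplaced genes (Glyma.U) and 3 carry names of chromosome genes. Counted by DMR, 16 overlapped an exon, 16 a promoter (the 2 kb upstream of a gene), 12 an intron, 6 a 5′UTR and 4 a 3′UTR. Gene functions below are the Gene Ontology (GO) terms of the deposited tables, which gave terms for 16 of the 23 genes.

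The gene-bearing DMRs leaned to one direction: 20 of 24 (83.3%) were lower in NJCMS5A, against 52.3% of all 264 high-depth DMRs and 55.8% of all DMRs. Both comparison sets are mostly DMRs without a gene, and the share over all 600 gene-bearing DMRs was not computed. In every gene region the authors also counted more hypo-methylated than hyper-methylated genes, so the lean is not shown to be particular to the high-depth DMRs. Their median level was 7.83% in NJCMS5A and 37.3% in NJCMS5B. They also leaned in depth, since 18 of the 24 were deeper in NJCMS5B, with a median depth of 13.4 in NJCMS5A and 32.9 in NJCMS5B. Counted by gene, 19 genes had lower levels in NJCMS5A in every high-depth DMR, 4 had DMRs of both directions and 0 had only higher levels. Several of these genes share a DMR, so they are not separate counts. Over all genes with a DMR, the authors counted the classes in the same order: hypo-methylated most often, then both, then hyper-methylated. The part of the depth in this lean was not tested, and the 24 DMRs lie on only 17 scaffolds.

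**Figure D5:**
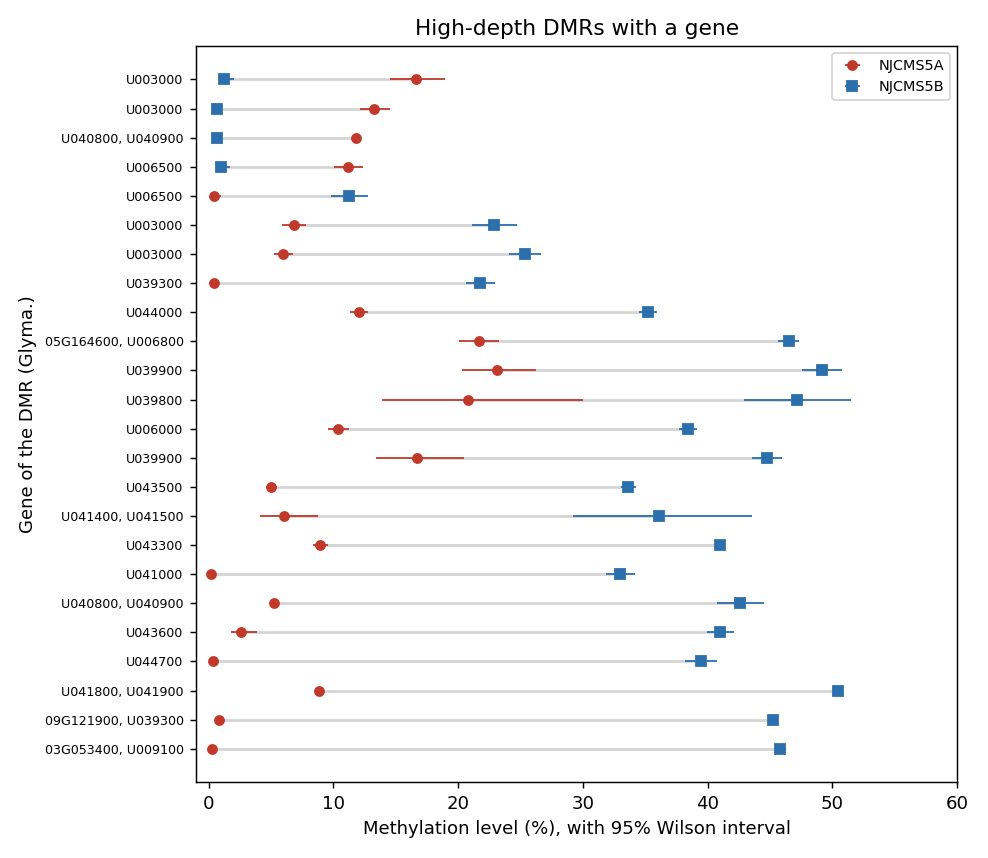
Methylation level in percent (x axis) of the 24 high-depth DMRs with a gene in NJCMS5A (red circles) and NJCMS5B (blue squares), with 95% Wilson intervals that cover counting error only, ordered by the level difference from highest to lowest (y axis, gene names without the prefix Glyma.). In 4 DMRs, at the top, the NJCMS5A level is the higher, and in the other 20 it is the lower.

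The genes are grouped here by their GO terms, beginning with oxidation-reduction and cofactor binding. Glyma.U039300 (dioxygenase activity, metal ion binding) had a DMR over its exons, introns, 5′UTR and promoter on scaffold_442 from 74 to 7773, with a level of 0.791% at a depth of 12.4 in NJCMS5A and 45.2% at a depth of 53.9 in NJCMS5B. A further DMR in its exons and introns, from 8932 to 9675, had a level of 0.427% in NJCMS5A and 21.8% in NJCMS5B. The first of these was also annotated to the 5′UTR of Glyma.09G121900, a gene named for a chromosome.

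Glyma.U043300 (oxidoreductase activity, coenzyme binding) had a DMR over exon, intron and 3′UTR on scaffold_821 from 2112 to 5607, with a level of 8.92% at a depth of 11.8 in NJCMS5A and 41.0% at a depth of 116 in NJCMS5B. Glyma.U041500 (NADH dehydrogenase (ubiquinone) activity) and Glyma.U041400 (NAD binding) shared a short DMR on scaffold_660 from 4033 to 4086, exonic in the first and in the promoter of the other. It held only 15 cytosines, and its level was 6.02% (95% Wilson interval 4.11 to 8.74) at a depth of 27.7 in NJCMS5A and 36.1% (29.2 to 43.6) at a depth of 11.3 in NJCMS5B. An intronic DMR of Glyma.U041500 outside the high-depth set, from 5801 to 6019, had a level of 2.08% at a depth of 8.35 in NJCMS5A and 34.6% at a depth of 14.2 in NJCMS5B, so the level was lower in NJCMS5A at both.

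Glyma.U040900 (NAD binding) and Glyma.U040800 (DNA-directed RNA polymerase activity) shared a pair of DMRs of opposite direction on scaffold_633. The DMR from 1429 to 4565, in exons of both genes and the promoter of Glyma.U040800, had a level of 11.8% at a depth of 65.4 in NJCMS5A and 0.666% at a depth of 11.6 in NJCMS5B. The DMR from 4646 to 5127, in the promoters of both genes and an exon of Glyma.U040900, had a level of 5.28% at a depth of 63.7 in NJCMS5A and 42.6% at a depth of 13.2 in NJCMS5B. Depth was high in NJCMS5A at both, while the direction differed.

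Glyma.U003000 (coenzyme binding) had the most DMRs, 4 on scaffold_123, all with depths over 20 in both libraries. In its introns, the DMR from 26378 had a level of 13.3% in NJCMS5A and 0.701% in NJCMS5B, and that from 30775 had a level of 5.94% in NJCMS5A and 25.4% in NJCMS5B. In its promoter, the DMR from 39966 had a level of 16.6% in NJCMS5A and 1.24% in NJCMS5B, and that from 41067 had a level of 6.81% in NJCMS5A and 22.9% in NJCMS5B. Each region of the gene thus held a DMR of either direction.

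Genes with terms for nucleic acids came next. Glyma.U009100 (RNA binding) held the deepest of the 264 DMRs, that of scaffold_2080 described above, over its exons, introns and both UTRs, and the same DMR was annotated to the UTRs of Glyma.03G053400 (actin binding, actin cytoskeleton organization). Glyma.U043500 (DNA binding, DNA packaging) had a DMR over its promoter, 5′UTR, exons and introns on scaffold_846 from 1367 to 5744, with a level of 5.01% at a depth of 12.5 in NJCMS5A and 33.7% at a depth of 30.9 in NJCMS5B. Glyma.U006800 (RNA export from nucleus, amino acid activation) had a DMR over its promoter, 5′UTR, exon and intron on scaffold_1718 from 202 to 1396, with a level of 21.7% at a depth of 10.3 in NJCMS5A and 46.5% at a depth of 55.9 in NJCMS5B. That DMR was also annotated to the 5′UTR of Glyma.05G164600 (integral to membrane). All 3 DMRs were lower in NJCMS5A. Glyma.U040800, placed above, also has the term DNA binding, and its DMRs were of both directions.

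Of the genes not yet named, those with protein-binding or assembly terms were Glyma.U006000, Glyma.U006500, Glyma.U043600 and Glyma.U044000. Such terms were also given to Glyma.U039300, Glyma.03G053400 and Glyma.U043500, placed above. The exon and promoter DMR of Glyma.U006000 on scaffold_164 had a level of 10.4% in NJCMS5A and 38.4% in NJCMS5B. The exon and intron DMR of Glyma.U043600 on scaffold_852 had a level of 2.63% at a depth of 13.5 in NJCMS5A and 41.0% at a depth of 127 in NJCMS5B. For Glyma.U044000 (macromolecular complex assembly), the DMR from its promoter to its 3′UTR on scaffold_91 had a level of 12.1% in NJCMS5A and 35.2% in NJCMS5B. All 3 DMRs were lower in NJCMS5A, as was a promoter DMR of Glyma.U044000 outside the high-depth set (19.1% in NJCMS5A and 41.7% in NJCMS5B). Glyma.U006500 had DMRs of both directions on scaffold_165, an exonic one with 0.394% in NJCMS5A and 11.2% in NJCMS5B and a promoter one with 11.2% in NJCMS5A and 0.997% in NJCMS5B.

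Besides Glyma.09G121900, 6 further genes had no GO term in the tables, and every high-depth DMR of theirs was lower in NJCMS5A. Glyma.U041800 and Glyma.U041900 shared a DMR of 6692 bp and 1346 cytosines on scaffold_691, with a level of 8.85% at a depth of 18.3 in NJCMS5A and 50.5% at a depth of 72.8 in NJCMS5B. Glyma.U039900 had DMRs in its promoter, the first also exonic, on scaffold_522 with levels of 23.1% in NJCMS5A and 49.1% in NJCMS5B from 7060, and of 16.7% at a depth of 9.00 in NJCMS5A and 44.7% at a depth of 136 in NJCMS5B from 8258. The intronic DMR of Glyma.U044700 on scaffold_93 had a level of 0.348% in NJCMS5A and 39.5% in NJCMS5B. These differences span a wide range of levels in NJCMS5A, and that of the exon and promoter DMR of Glyma.U041000 on scaffold_636 was among the lowest, at 0.160% in NJCMS5A and 33.0% in NJCMS5B. The promoter DMR of Glyma.U039800 on scaffold_521 held only 14 cytosines, and its level of 20.8% (95% Wilson interval 13.9 to 30) in NJCMS5A and 47.2% (42.9 to 51.5) in NJCMS5B is the least precise of the set in NJCMS5A.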

How the data were processed

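Whole-genome bisulfite libraries of NJCMS5A and NJCMS5B flower buds, 1 per line, were aligned by the authors with Bismark (0.12.5) to the Williams 82 genome, and DMRs were called with swDMR in 1000 bp windows moved by 100 bp steps, with a Fisher test at a false discovery rate of at most 0.05 and, in their wording, coverage changes of at least 5. Per the file headers, the deposited DMR table gives each library's methylation level as a fraction, printed here as a percentage, its depth as coverage in mean calls per cytosine without normalization between libraries, and the count of cytosines. The deposited annotation lists the gene regions of a DMR, and the deposited GO table gives term names. Columns of the authors' own tests (p-values, ratios, differences, enrichment values) and the pathway table were not used.

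Calls were recovered as level times depth times cytosines, which gave whole numbers in 3527 of 3527 DMRs (tolerance 1e-06). Scaffold number over 40 and depth over 20 in either library defined the 264 members. Levels were given 95% Wilson intervals, which cover counting error only, since calls of 1 read or PCR duplicates are not independent. Shares of DMRs were given the same intervals. Fisher's exact test (two-sided) was run on all 3527 DMRs with Benjamini-Hochberg adjustment at 0.05 and was tested on simulated data. Computations used Python 3.11.15, numpy 2.4.6, scipy 1.17.1 and pandas 2.3.3. The DMRs named were the 5 deepest per library, the 5 largest decreases and increases and the 3 densest and sparsest among DMRs with at least 50 cytosines, the 3 extreme depth ratios on each side, the 3 on each side of the depth limit, every DMR with a gene, and those of the scaffolds with the most members. The DMRs of scaffolds 56, 66, 633 and 165 given as examples beyond this were chosen after their values were seen. Members and lists were chosen with earlier results of these data known. Alternatives were other depth limits, a scaffold number over 100, at least 50 cytosines, a minimum depth of 10 in each library, 1 DMR per scaffold, scaled depths, each cytosine counted once and Bonferroni adjustment. No gene name matched the RefSeq table used here, and DMR sequences were not analysed here.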

Additional observations from a re-analysis of the deposited data

How the results depend on the processing

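No paired analysis was possible because each line gave 1 library. The number of high-depth DMRs was 426 with a depth over 15, 155 with a depth over 30 and 14 with a depth over 20 in both libraries, against 264, and 194 with a scaffold number over 100. The share of DMRs with the higher level in the deeper library, whose alternatives were chosen after seeing the data, was 75.4% over depth 15, 88.4% over depth 30 and 50% over depth 20 in both libraries, against 83.0%. The share with a difference of at least 20 points was 74.4%, 89.0% and 50% under the same limits, against 81.4%. With a depth over 20 in both libraries the share lower in NJCMS5A was 42.9% and the cytosine density 13.0 per 100 bp, from 14 DMRs of 11 scaffolds. The median level difference, NJCMS5A minus NJCMS5B, changed sign, at 16.4 points over depth 30 and 12.2 points over 20 in both, against -14.0 points. The differences fall on both sides of an empty band around 0, so their median moves across it when the share of either direction passes 50%. The median log2 depth ratio changed sign too, at 0.03 over depth 15, 0.33 over depth 30 and 0.03 over 20 in both. Neither sign is read as a result. Of 46 alternatives, 34 stayed within the interval or 1.5-fold. Among those with 1 DMR per scaffold, the share with the higher level in the deeper library was 81.97%, and the share of gene-bearing DMRs lower in NJCMS5A was 88.2% of 17. With 1 library per line, no setting separates line from library, and depth limits the precision of levels in the shallower library.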
